A study of Saccharomyces cerevisiae with 12 samples.

Results

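The 10 genes described here encode thioredoxin, glutathione, peroxiredoxin and old yellow enzyme proteins of budding yeast that are known targets of the transcription factor Yap1. They were chosen by name (TRX2, TRR1, SRX1, TSA1, AHP1, GSH1, GLR1, GPX2, OYE2 and OYE3), with earlier results of these data known. All 10 were measured by 1 probe each, all 10 probes were detected on all 12 arrays, and they form 10 of the 6139 genes tested. Yap1 is held out of the nucleus in unstressed yeast by the exportin Crm1. Peroxide, sensed through the peroxidase Hyr1, or thiol-reactive drugs change the disulfide state of Yap1, so that it stays in the nucleus and turns on its targets. Thioredoxin and glutathione are the main thiol reducing systems of the cell, both are recharged with NADPH, and peroxiredoxins use thioredoxin to reduce peroxides.

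The study measured total RNA on 1-colour (Cy5) oligonucleotide arrays in 4 groups of 3: sgs1Δ with tangeretin, sgs1Δ control, WT with tangeretin and WT control. Tangeretin, a methoxylated flavone of citrus peel, was given at 30 µM for 4 h at 30 °C, and the control medium held 0.2% DMSO alone. Both strains were labelled MATα his3Δ1 leu2Δ0 met15Δ0 ura3Δ0 trp1∆::HPH, and both carried the plasmid pRS414-GAL1-HO-TRP1, on which the GAL1 promoter drives the HO endonuclease, and grew without tryptophan. The deletion strain carried sgs1∆::kanMX4 in addition and so lacked the RecQ helicase Sgs1. Each genotype was 1 strain. Nothing in the labels tells whether separate cultures lay behind the 3 arrays of each group, and the file headers give them 1 sample number, so p-values measure only the spread between these arrays, which may be technical.

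The SGS1 probe read 4 to 7 units of raw intensity on the 3 sgs1Δ tangeretin arrays and 5 to 6 on the 3 sgs1Δ control arrays, and was detected on none of them. On the WT arrays it read 151 to 169 with tangeretin and 108 to 120 in control medium. Array brightness, the median raw intensity of an array, moved with both factors: it was 1367.5 to 1530 in sgs1Δ with tangeretin, 928 to 1344 in the sgs1Δ control, 780 to 956 on the WT tangeretin arrays, and 530, 548 and 814.5 on the WT control arrays. Brightness was therefore added to the fit as an alternative. The values of that fit are given beside the results of the 10 genes and, for other pathway genes, as counts with examples. In both media every sgs1Δ array was brighter than every WT array. Strain and brightness therefore cannot be told apart, and strain differences with brightness in the fit rest on extrapolation. Strain calls kept, lost or gained in that fit are to be read with this limit. The 4 α cell markers summed to 51861 to 52256 raw units in sgs1Δ with tangeretin and 26344 to 33190 in the sgs1Δ control, against 3103 to 3452 on the WT tangeretin arrays and 2568 to 3226 on the WT control arrays. The 6 a cell markers summed to 23366 to 24767 and 12328 to 16921 in the same sgs1Δ groups, against 7196 to 7957 and 6066 to 7297 in the WT groups. These sums are raw and hold the brightness of the arrays. After quantile normalization the median log2 change of sgs1Δ against WT was 2.07 in control medium and 3 under tangeretin for the α cell markers. For the a cell markers it was 0.35 and 0.7. The α cell sums were lower on all WT arrays than on all sgs1Δ arrays although both strains are labelled MATα. All 10 markers were detected on all 12 arrays, none was at 0, and their part in the values below was not tested. In these bulk cultures, fewer cells expressing a gene and less of its RNA per cell cannot be told apart.

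Levels below are log2 of the quantile-normalized intensity plus 50, and a log2 change is a difference between group means of such levels. Calls are differences with an adjusted p under 0.05 in limma, where the Benjamini-Hochberg adjustment ran over all 6139 genes. In sgs1Δ against WT in control medium, 5 of the 10 genes were called, 4 higher (GPX2, TRX2, AHP1 and GLR1) and 1 lower (TRR1), where 48.3% of all genes were called, 21.7% higher and 26.6% lower. Under tangeretin 3 were called between the strains, GPX2 and SRX1 higher and TRR1 lower, where 46.2% of all genes were called, 21% higher and 25.2% lower. The total called in control medium thus lay near the share of all genes, with more of the 10 higher and fewer lower. Under tangeretin a smaller share was called than over all genes. With only 10 genes such shares are rough. The median log2 change of the 10 genes was 0.08 in control medium and -0.07 under tangeretin, beside -0.02 and -0.04 over all genes. The arrays of the strains did not overlap for 5 of the 10 genes in control medium (51.8% of all genes) and for 4 under tangeretin (57.7% of all genes).

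With tangeretin 1 of the 10 passed the test in WT and 0 in sgs1Δ. In WT the call was GLR1, which was higher, where 3.39% of all genes were called, and 5 of the 10 had an unadjusted p under 0.05 (GLR1, TRX2, GPX2 and OYE2 above 0 and SRX1 below 0), where 27.7% of all genes did. In sgs1Δ limma called 0 of the 10, where 1.48% of all genes were called, and 1, GPX2, had an unadjusted p under 0.05, where 22% of all genes did. The response of sgs1Δ minus that of WT was called for 0 of the 10 (1.5% of all genes were called), and 1, GLR1, had an unadjusted p under 0.05, where 16.4% of all genes did. The median log2 change with tangeretin was 0.07 in sgs1Δ and 0.16 in WT, beside -0.02 and -0.04 over all genes. Tangeretin and control arrays did not overlap for 1 of the 10 genes in sgs1Δ (25.2% of all genes) and for 3 in WT (24.3% of all genes).

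**Figure D1:**
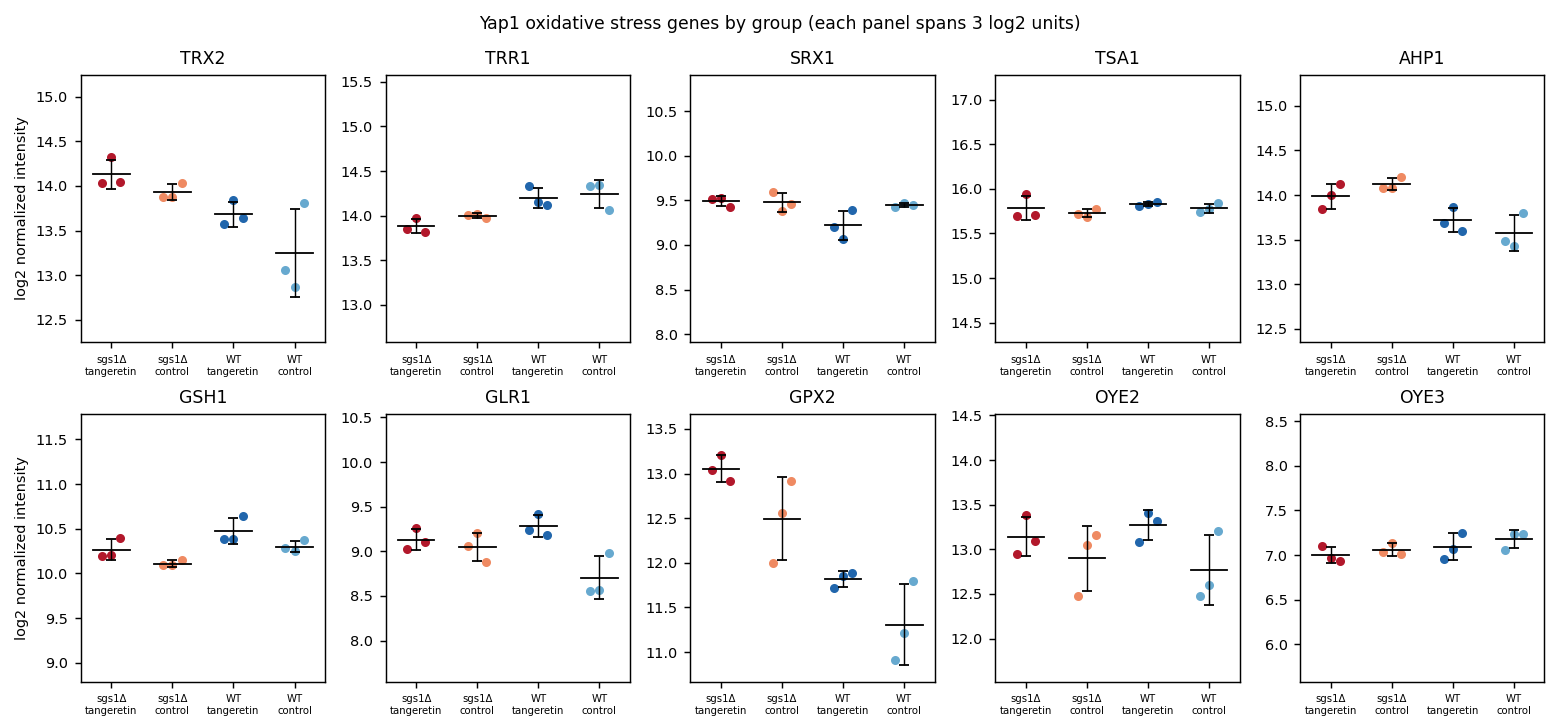
Normalized level of each of the 10 genes on each array (vertical axis, log2 of quantile-normalized intensity plus 50) in the 4 groups; points are arrays and bars are group means with SD, n = 3. GPX2 was above every WT array on every sgs1Δ array, while TSA1 stayed between 15.68 and 15.94 on all 12 arrays.

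The thioredoxin branch began with TRX2 (YGR209C, chromosome VII), a cytosolic thioredoxin and a classical Yap1 target. Its level was 14.03, 14.32 and 14.04 on the sgs1Δ tangeretin arrays and 13.88, 13.88 and 14.03 on the sgs1Δ control arrays. In WT it was 13.57, 13.84 and 13.64 with tangeretin and 13.06, 12.87 and 13.81 in the control. Every sgs1Δ array lay above every WT array, and the third WT control array lay near the WT tangeretin arrays, apart from the other two of its group. TRX2 was 1.61-fold higher in sgs1Δ than in WT in control medium (log2 change 0.69, SE 0.19, adjusted p = 0.00803). Under tangeretin the difference was 0.45 (SE 0.19, adjusted p = 0.0632), which did not pass. It passed in 4 of 23 alternative settings, among them the fit of these 6 arrays alone (0.45, adjusted p = 0.00436), and with brightness in the fit it was -0.16 (adjusted p = 0.723). Tangeretin against control gave 0.20 in sgs1Δ (adjusted p = 0.571) and 0.43 in WT (SE 0.19, adjusted p = 0.152). With brightness in the fit the log2 change of TRX2 between the strains in control medium was 0.07 (SE 0.25, adjusted p = 0.901).

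Thioredoxin is recharged by the reductase TRR1 (YDR353W, chromosome IV), the cytosolic enzyme that takes electrons from NADPH. TRR1 was lower in sgs1Δ while TRX2 was higher. Its level was 13.85, 13.97 and 13.82 in sgs1Δ with tangeretin and 14.01, 14.02 and 13.97 in the sgs1Δ control. In WT the level of TRR1 was 14.33, 14.15 and 14.12 with tangeretin and 14.33, 14.34 and 14.06 in the control. Within each medium all sgs1Δ arrays lay below all WT arrays. The log2 change between strains was -0.25 in control medium (SE 0.10, adjusted p = 0.048) and -0.32 under tangeretin (SE 0.10, adjusted p = 0.0146). The call in control medium was kept in 10 of 23 alternative settings and the call under tangeretin in 19 of 23. With brightness in the fit the differences were -0.07 (adjusted p = 0.839) and -0.14 (adjusted p = 0.567). With tangeretin TRR1 changed by -0.12 in sgs1Δ (adjusted p = 0.501) and -0.04 in WT (adjusted p = 0.78).

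The peroxiredoxins TSA1 (YML028W, chromosome XIII) and AHP1 (YLR109W, chromosome XII) both reduce peroxides with thioredoxin, and AHP1 is best known for alkyl hydroperoxides. AHP1 reached 13.84, 14 and 14.12 in sgs1Δ with tangeretin and 14.08, 14.08 and 14.20 in the sgs1Δ control. On the WT arrays AHP1 reached 13.69, 13.87 and 13.60 with tangeretin, against 13.49, 13.43 and 13.80 in control medium. In control medium the sgs1Δ arrays lay above all WT arrays, and under tangeretin 1 array of each strain crossed over. AHP1 was 1.46-fold higher in sgs1Δ than in WT in control medium (log2 change 0.55, SE 0.11, adjusted p = 0.00165). Under tangeretin the difference was 0.27 (SE 0.11, adjusted p = 0.073), and it passed in 4 of 23 alternative settings. With tangeretin AHP1 changed by -0.13 in sgs1Δ (adjusted p = 0.531) and 0.15 in WT (adjusted p = 0.401), and the difference of these responses was -0.28 (adjusted p = 0.411). Brightness in the fit left 0.28 between the strains in control medium (SE 0.17, adjusted p = 0.353).

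TSA1 gave no call in any of the 5 comparisons after quantile normalization. Its level was 15.70 to 15.94 in sgs1Δ with tangeretin, 15.68 to 15.77 in the sgs1Δ control, 15.81 to 15.85 in WT with tangeretin and 15.74 to 15.84 in the WT control. The log2 change of TSA1 between the strains was -0.06 in control medium (adjusted p = 0.562) and -0.05 under tangeretin (adjusted p = 0.675). Brightness in the fit gave -0.12 (adjusted p = 0.651) and -0.1 (adjusted p = 0.67). Scaling to the 75th percentile gave -0.45 (adjusted p = 0.00138) and -0.49 (adjusted p = 0.000797). Its raw intensity was 42423 to 65463 while the brightest spots of the arrays read up to 65478, so this probe sat near the top of the scanner range, where a rise has little room to show.

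SRX1 (YKL086W, chromosome XI), the sulfiredoxin that repairs overoxidized Tsa1, was 9.51, 9.53 and 9.43 in sgs1Δ with tangeretin and 9.59, 9.38 and 9.46 in the sgs1Δ control. The level of SRX1 in WT was 9.20, 9.07 and 9.39 with tangeretin and 9.43, 9.47 and 9.45 in the control. The 3 WT tangeretin arrays included the lowest values of SRX1, and they lay below all WT control arrays and all sgs1Δ tangeretin arrays. SRX1 was 1.21-fold higher in sgs1Δ than in WT under tangeretin (log2 change 0.27, SE 0.09, adjusted p = 0.03). The other differences of SRX1 did not pass: 0.02 between the strains in control medium (adjusted p = 0.851), 0.01 with tangeretin in sgs1Δ (adjusted p = 0.945) and -0.23 with tangeretin in WT (SE 0.09, adjusted p = 0.139). With scaling to the 75th percentile the strain difference of SRX1 in control medium was 0.27 and passed (adjusted p = 0.0204). The call under tangeretin held in 18 of 23 alternative settings, and with brightness in the fit the difference was 0.39 (SE 0.15, adjusted p = 0.097).

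The glutathione branch opens with GSH1 (YJL101C, chromosome X), the γ-glutamylcysteine synthetase that catalyses the first step of glutathione synthesis. Its level was 10.19, 10.21 and 10.40 in sgs1Δ with tangeretin and 10.09, 10.09 and 10.15 in the sgs1Δ control. In WT its level was 10.39, 10.39 and 10.64 with tangeretin and 10.28, 10.25 and 10.37 in the control. All tangeretin arrays lay above all control arrays of their own strain, by small amounts. Tangeretin against control gave a log2 change of 0.16 in sgs1Δ (adjusted p = 0.342) and 0.17 in WT (SE 0.09, adjusted p = 0.227), and neither passed. The strain difference of GSH1 was -0.19 in control medium (SE 0.09, adjusted p = 0.105) and -0.21 under tangeretin (SE 0.09, adjusted p = 0.0815). With brightness in the fit it was -0.23 (adjusted p = 0.392) and -0.25 (adjusted p = 0.318).

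GLR1 (YPL091W, chromosome XVI) encodes glutathione reductase, which returns oxidized glutathione to its reduced form with NADPH. It was the 1 gene of the 10 called with tangeretin. Its level was 9.03, 9.26 and 9.10 in sgs1Δ with tangeretin and 9.06, 9.20 and 8.88 in the sgs1Δ control. In WT it stood at 9.24, 9.42 and 9.18 with tangeretin and at 8.56, 8.57 and 8.98 in the control. The WT tangeretin arrays lay above all WT control arrays, whereas the sgs1Δ groups overlapped. GLR1 was 1.49-fold higher with tangeretin in WT (log2 change 0.57, SE 0.13, adjusted p = 0.0321), and in sgs1Δ the change was 0.08 (adjusted p = 0.735). The difference of the responses, sgs1Δ minus WT, was -0.49 (SE 0.18, adjusted p = 0.198) and did not pass. Between the strains GLR1 was 1.26-fold higher in sgs1Δ in control medium (log2 change 0.34, SE 0.13, adjusted p = 0.039), although the arrays overlapped. Under tangeretin the difference of GLR1 was -0.15 (adjusted p = 0.337).

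The calls on GLR1 moved with the brightness of the arrays and with single arrays. With brightness in the fit the change with tangeretin in WT was 0.28 (SE 0.10, adjusted p = 0.59), and the strain difference in control medium turned to -0.16 (adjusted p = 0.51). In the same fit GLR1 was lower in sgs1Δ under tangeretin (log2 change -0.64, SE 0.13, adjusted p = 0.00508), where the brightness of the strains did not overlap. The difference of the responses in that fit was -0.48 (adjusted p = 0.0355). GLR1 was the 1 gene of the 10 called in that fit. There, 0 of the 10 were called between the strains in control medium, where 12.9% of all genes were, and 1 of the 10 under tangeretin, where 17.9% of all genes were. The call on tangeretin in WT was also lost without WT control array 1 (0.50, adjusted p = 0.162) or 2 (0.51, adjusted p = 0.178), and without WT tangeretin array 2 (0.51, adjusted p = 0.154) or 3 (0.63, adjusted p = 0.0752). The strain call in control medium was lost without WT control array 1 or 2 and without sgs1Δ control array 1 or 2.

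**Figure D2:**
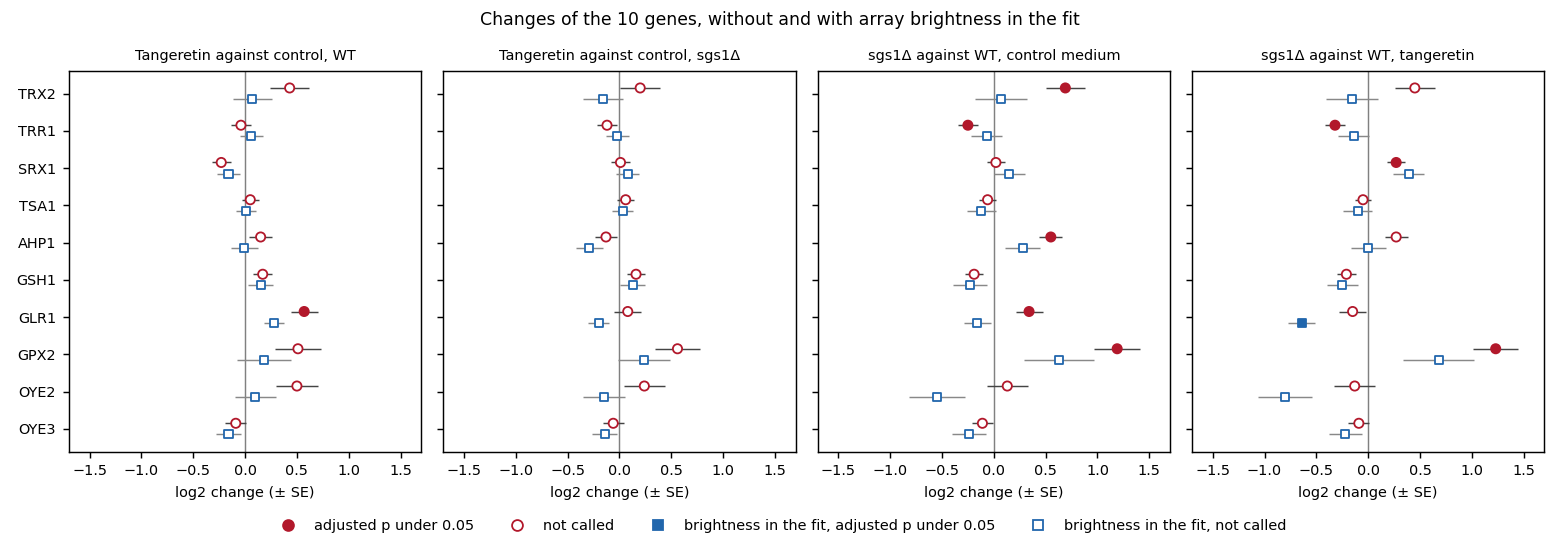
Log2 change of each gene in 4 comparisons (horizontal axis) with its SE, without and with array brightness as a term of the fit; filled points passed the adjusted p of 0.05. GPX2 between the strains in control medium moved to 0.63 with brightness, against 1.19 without it, and GLR1 under tangeretin moved to -0.64, against -0.15.

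GPX2 (YBR244W, chromosome II), a glutathione peroxidase homolog that works with thioredoxin, gave the greatest strain difference of the 10. Its level was 13.04, 13.21 and 12.92 in sgs1Δ with tangeretin and 12, 12.56 and 12.92 in the sgs1Δ control. In WT its level was 11.72, 11.85 and 11.89 with tangeretin and 10.91, 11.21 and 11.80 in the control. Every sgs1Δ array lay above every WT array, and both control groups were spread more widely than the tangeretin groups. GPX2 was 2.28-fold higher in sgs1Δ than in WT in control medium (log2 change 1.19, SE 0.22, adjusted p = 0.000701) and 2.35-fold higher under tangeretin (1.23, SE 0.22, adjusted p = 0.000511). With tangeretin the log2 change of GPX2 was 0.56 in sgs1Δ (SE 0.22, adjusted p = 0.169) and 0.51 in WT (SE 0.22, adjusted p = 0.156). With brightness in the fit the strain differences of GPX2 were 0.63 (SE 0.34, adjusted p = 0.272) and 0.68 (SE 0.34, adjusted p = 0.199).

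GPX2 lies on the right arm of chromosome II, and genes of that chromosome were higher in sgs1Δ as a whole. The median log2 change between the strains of 404 other genes of chromosome II was 0.73 in control medium, with 82.7% called higher, and 0.67 under tangeretin, with 80.4% called higher. The medians of the other chromosomes ran from -0.14 to 0.04 in control medium and from -0.13 to -0.03 under tangeretin. Against the median of 296 genes of the right arm (0.72 in control medium and 0.69 under tangeretin), GPX2 stood higher by 0.46 and 0.55, and 38 and 39 of the 296 genes stood above it. The 10 nearest tested neighbours of GPX2 on the chromosome, 5 on each side, had log2 changes of 0.18 to 1.47 in control medium, with 8 of the 10 called. How much of the GPX2 difference is shared with its chromosome was not tested. GPX2 is the 1 gene of the 10 on chromosome II.

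**Figure D3:**
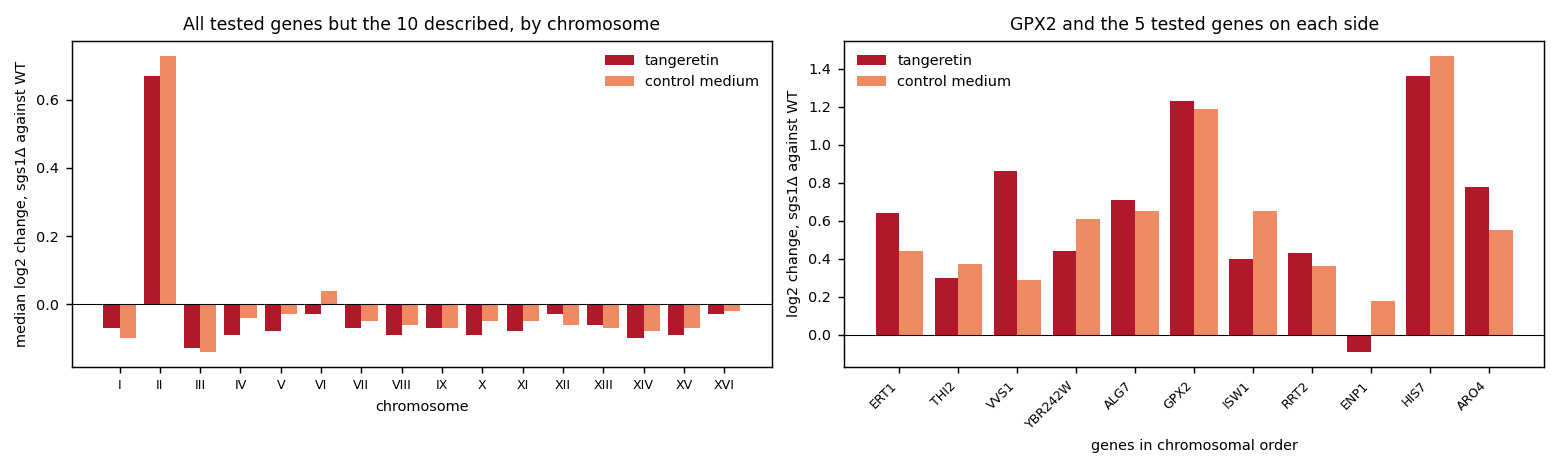
Log2 change of sgs1Δ against WT (vertical axes) under tangeretin and in control medium, as the median of the genes of each chromosome (left) and for GPX2 with the 5 tested genes on each side (right). Chromosome II stands above the other chromosomes, with a median of 0.67 under tangeretin and 0.73 in control medium, and of the neighbours only HIS7 stands above GPX2.

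The old yellow enzymes OYE2 (YHR179W, chromosome VIII) and OYE3 (YPL171C, chromosome XVI) are NADPH-dependent flavin oxidoreductases that reduce unsaturated carbonyl compounds. OYE2 stood at 12.95, 13.38 and 13.09 in sgs1Δ with tangeretin and at 12.48, 13.05 and 13.16 in the sgs1Δ control. Its level in WT was 13.08, 13.41 and 13.32 with tangeretin and 12.48, 12.60 and 13.21 in the control. All 4 groups overlapped, since 1 or more control arrays of each strain reached the range of the tangeretin arrays. The log2 change of OYE2 with tangeretin was 0.24 in sgs1Δ (adjusted p = 0.514) and 0.50 in WT (SE 0.20, adjusted p = 0.135). Between the strains it was 0.13 in control medium (adjusted p = 0.609) and -0.13 under tangeretin (adjusted p = 0.624), and with brightness in the fit -0.55 (adjusted p = 0.213) and -0.80 (SE 0.26, adjusted p = 0.0532).

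OYE3 was the dimmest of the 10 probes, with raw intensities of 113 to 119 in sgs1Δ with tangeretin, 71 to 116 in the sgs1Δ control, 62 to 84 in WT with tangeretin and 39 to 75 in the WT control. These lie near the offset of 50 added before the log, which understates changes of so dim a probe. The normalized level of OYE3 was 6.93 to 7.10, 7.01 to 7.14, 6.95 to 7.25 and 7.06 to 7.24 in the same order of groups. Its log2 changes were -0.06 with tangeretin in sgs1Δ, -0.09 with tangeretin in WT, -0.11 between the strains in control medium and -0.09 between them under tangeretin, and none passed (adjusted p = 0.742, 0.56, 0.346 and 0.475). With brightness in the fit the strain differences of OYE3 were -0.24 (adjusted p = 0.367) and -0.22 (adjusted p = 0.396).

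The third WT control array, the brightest of its group, read TRX2 higher by 0.85, GPX2 by 0.74, OYE2 by 0.67 and GLR1 by 0.41 on the log2 scale than the mean of the other two. AHP1 was higher there by 0.35, TRR1 differed by -0.27, and the other 4 genes by 0 to 0.11. Over all genes this difference had a median of -0.04, and the range from the 5th to the 95th percentile was -0.39 to 0.51. Without that array 4 of the 10 genes were called with tangeretin in WT, all 4 higher, where 12.3% of all genes were called higher and 26.9% in either direction. These were TRX2 (log2 change 0.72, adjusted p = 0.00241), GLR1 (0.71, adjusted p = 0.00211), GPX2 (0.75, adjusted p = 0.0168) and OYE2 (0.73, adjusted p = 0.0143). Without it the difference of the GLR1 responses was -0.63 (adjusted p = 0.0324). The WT control arrays left, with medians of 530 and 548, were dimmer than every WT tangeretin array (780 to 956). Tangeretin and brightness cannot be told apart there. With brightness in the fit of all 12 arrays, tangeretin in WT changed TRX2 by 0.07 (adjusted p = 0.947) and GLR1 by 0.28 (adjusted p = 0.59). GPX2 changed by 0.18 (adjusted p = 0.915) and OYE2 by 0.10 (adjusted p = 0.931).

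**Figure D4:**
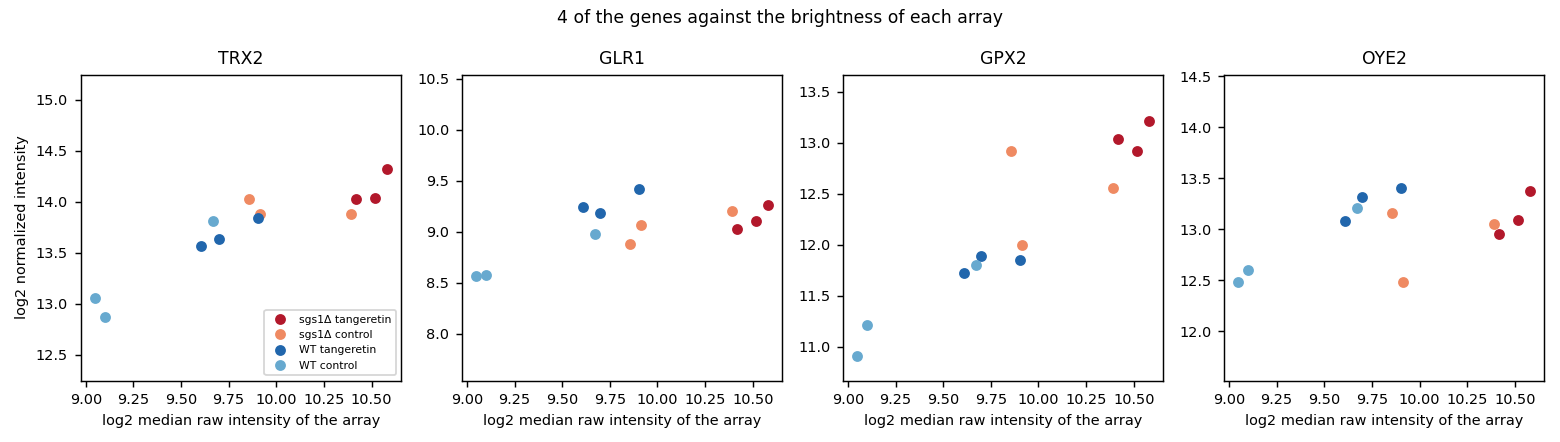
Normalized level of TRX2, GLR1, GPX2 and OYE2 (vertical axes, log2) against the brightness of each array (horizontal axis, log2 of the median raw intensity), coloured by group. The dimmest arrays, WT control 1 and 2 with medians of 530 and 548, hold the lowest levels of TRX2, GPX2 and GLR1.

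Patterns over the 12 arrays were set against all other genes for 3 of the 10, as a description. The measure was the root mean square difference of levels centred on each gene's mean, in log2 units, so a small value means a like pattern. The spread of TRX2 itself was 0.40, and the genes most like it were MOB1 (0.13), LIP5 (0.13) and THI20 (0.14). Among the 10 genes AHP1 came nearest to TRX2 (0.23). TRR1, with a spread of 0.17, was most like YKL053W (0.06), YDR199W (0.06) and a probe shared by YAR062W and YHR213W (0.07), and OYE3, with 0.11, was most like CDC9 (0.06), DIS3 (0.07) and GLE1 (0.07). TSA1 was the nearest of the 10 to TRR1 (0.17) and to OYE3 (0.13). These values are no smaller than the spreads of TRR1 and OYE3 themselves, so they show no like pattern. The correlation of TSA1 over the 12 arrays was 0.21 with TRR1 and 0.08 with OYE3.

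Around these 10 genes, 69 of 72 other genes of oxidative defence and of the Yap1 response were measured. Between the strains 25 were called higher and 16 lower in control medium (59.4%), and 25 higher and 14 lower under tangeretin (56.5%), beside the shares of all genes given above (48.3% and 46.2%). With tangeretin 0 of the 69 were called in sgs1Δ and 1 in WT, GRE2, a methylglyoxal reductase, which was higher (log2 change 0.53, SE 0.11, adjusted p = 0.0264) and with brightness in the fit was as large within its error but did not pass (0.49, adjusted p = 0.383). With brightness 18 of the 41 calls in control medium and 23 of the 39 under tangeretin were kept, and over all genes 718 of 2965 and 988 of 2838. All 5 that lie on chromosome II (PRX1, GRX7, DUG2, YBP1 and FLR1) were among those higher in sgs1Δ in both media.

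Of 8 other thioredoxin and peroxiredoxin genes, 4 were higher in sgs1Δ in control medium and 5 under tangeretin, and 0 were lower in either. Over all genes 21.7% were higher and 26.6% lower in control medium, and 21% and 25.2% under tangeretin. The counts of this list and of those below are to be read beside these shares. The peroxiredoxin genes TSA2, the paralog of TSA1, and PRX1, of the mitochondrial form and on chromosome II, led the higher genes of this list. TSA2 was 2.60-fold higher in control medium (log2 change 1.38, SE 0.08, adjusted p = 2.44e-08) and 2.65-fold under tangeretin (1.41, adjusted p = 1.54e-08). PRX1 changed by 1.48 and 1.37, the mitochondrial thioredoxin reductase TRR2 by 0.76 and 1.16, and the peroxiredoxin DOT5 by 0.57 and 0.62, in control medium and under tangeretin. The mitochondrial thioredoxin TRX3 passed under tangeretin alone (0.31, adjusted p = 0.0183). TRR2 and DOT5 lost their calls in control medium with brightness in the fit (0.19, adjusted p = 0.546, and 0.44, adjusted p = 0.185), and DOT5 (0.49, adjusted p = 0.112) and TRX3 (0.20, adjusted p = 0.442) lost theirs under tangeretin.

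Of 21 other glutathione genes, 9 were higher and 3 lower in sgs1Δ in control medium, and 9 higher and 2 lower under tangeretin. The glutathione transferase gene GTT1 was 2.29-fold higher in control medium (log2 change 1.19, SE 0.13, adjusted p = 6.05e-06), the glutaredoxin gene GRX1 1.97-fold and the glutathione transferase gene ECM4 1.80-fold. The others higher there were GSH2, GRX7, GTT2, GTO3, GPX1 and DUG2. OPT1, which encodes a transporter of glutathione and oligopeptides, had a log2 change of -2.06 in control medium (SE 0.11, adjusted p = 1.08e-08) and -1.89 under tangeretin (adjusted p = 2.03e-08). The other genes lower in control medium were the glutaredoxin genes GRX8 (-0.72) and GRX4 (-0.27). Under tangeretin ECM38, which degrades glutathione, was also higher (0.46). Of the 12 calls in control medium 7 were kept with brightness in the fit. ECM4 (0.40, adjusted p = 0.301) lost its call with a smaller change, while GSH2 (0.32), GTT2 (0.36), GTO3 (0.39) and GRX4 (-0.28) lost theirs with changes no smaller than before. Under tangeretin 9 of 11 were kept, all but ECM4 (0.68, adjusted p = 0.0599) and ECM38 (0.62, adjusted p = 0.119).

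**Figure D5:**
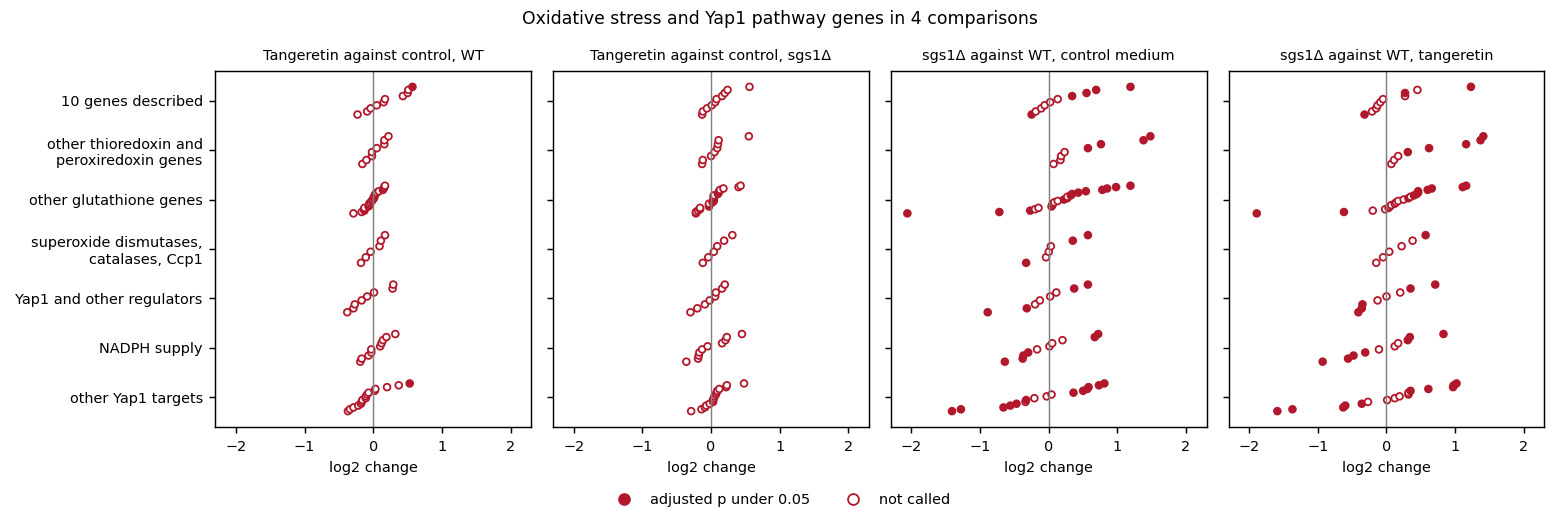
Log2 change (horizontal axis) of the 10 genes and of 69 other genes in 6 lists, 1 point a gene, in 4 comparisons; filled points passed the adjusted p of 0.05. Filled points are common between the strains, on both sides of 0, and with tangeretin only GLR1 and GRE2 in WT are filled.

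Among 8 regulators, 2 were higher and 2 lower in sgs1Δ in control medium. YAP1 itself was 1.49-fold higher in control medium (log2 change 0.57, SE 0.10, adjusted p = 0.000499) and 1.27-fold under tangeretin (0.35, adjusted p = 0.0123), and with brightness in the fit both calls were lost (0.26, adjusted p = 0.249, and 0.04, adjusted p = 0.881). YBP1, whose product binds Yap1 in its activation by peroxide, changed by 0.37 and 0.71. SKN7, a partner of Yap1 at peroxide-induced genes, changed by -0.32 and -0.35, and the general stress factor gene MSN4 by -0.89 and -0.41. CRM1, the exportin of Yap1, was lower under tangeretin alone (-0.36, adjusted p = 0.00744). YBP1 kept its call with brightness in the fit in both media and MSN4 in control medium (-0.75, adjusted p = 0.00399). MSN4 under tangeretin (-0.27, adjusted p = 0.239), CRM1 (-0.41, adjusted p = 0.109) and SKN7 in control medium (-0.39, adjusted p = 0.141) and under tangeretin (-0.42, adjusted p = 0.0941) lost theirs.

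In control medium the lists of enzymes around these pathways moved in both directions between the strains. Of 6 superoxide dismutase, catalase and cytochrome c peroxidase genes, the cytosolic catalase CTT1 (log2 change 0.57) and the mitochondrial superoxide dismutase SOD2 (0.35) were higher in sgs1Δ in control medium and CCP1 (-0.33) was lower. None of these 3 passed with brightness in the fit, where SOD2 was at -0.01 (adjusted p = 0.972), CTT1 at 0.56 (adjusted p = 0.089) and CCP1 at -0.26 (adjusted p = 0.208). Under tangeretin only CTT1 of the 6 was called, higher in sgs1Δ (0.57, adjusted p = 0.00138). With brightness it lost that call (0.56, adjusted p = 0.0732). SOD1 was not called, but it read 65452 to 65464 in sgs1Δ with tangeretin, near the top of the scanner range, where a rise has little room to show. Of 10 genes of NADPH supply, GND2 (0.72) and IDP2 (0.67) were higher in control medium, and the cytosolic aldehyde dehydrogenase gene ALD6 (-0.64), TKL1 (-0.38), UTR1 (-0.37) and GND1 (-0.30) were lower. Under tangeretin GND2, ZWF1 and POS5 were higher and ALD6, TKL1, UTR1 and TAL1 lower. With brightness ALD6 (-0.55) and IDP2 (0.57) kept their calls in control medium, and the other 4 lost theirs, among them TKL1 at -0.08 (adjusted p = 0.84) and UTR1 at -0.15 (adjusted p = 0.605). Under tangeretin GND2, ZWF1 and ALD6 kept theirs. Of 16 other Yap1 targets, 6 were higher and 6 lower in control medium, and 5 and 5 under tangeretin. AAD10 (0.73), OSI1 (0.81), the drug pump gene FLR1 (0.58), YNL134C (0.56), the quinone reductase gene LOT6 (0.50) and OXR1 (0.36) were higher in control medium. AAD3 (-1.41), YLR460C (-1.28), YML131W (-0.66), AAD6 (-0.56), AAD14 (-0.47) and GRE2 (-0.33) were lower. ATR1, a drug pump gene, passed under tangeretin alone (0.35, adjusted p = 0.0194). Adding brightness kept 5 of the 12 calls in control medium (AAD10, OSI1, FLR1, AAD3 and YLR460C). The calls on YNL134C, whose arrays overlapped (0.04, adjusted p = 0.938), LOT6 (0.33, adjusted p = 0.253), OXR1 (0.47, adjusted p = 0.0857), YML131W (-0.51, adjusted p = 0.417), AAD6 (-0.33, adjusted p = 0.196), AAD14 (-0.13, adjusted p = 0.703) and GRE2 (-0.39, adjusted p = 0.205) were lost. Under tangeretin 7 of 10 were kept.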

How the data were processed

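Yeast total RNA was hybridised to 12 Phalanx OneArray arrays, 3 a group, as grouped by the labels. The deposited raw table gives an intensity per spot, a raw intensity per the file headers; it had its background already subtracted, since 2158 empty spots had medians of 0 to 1. Its scanner flag (another kind of column per the file headers) was read as detected at 0. The authors' deposited log2 values, normalized by a method not given in the sources used here, served as an alternative. The image analysis tool and genome build are not given in the sources used here.

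Intensities under 0 were set to 0, arrays were quantile-normalized, 50 was added and log2 taken. Probes with a locus detected on at least 3 arrays were kept (6415), and where a gene had several, its brightest probe on average was used (6139 genes). The 325 probes that name several genes were kept as such. Levels of different probes were not compared. limma 3.58.1 in R 4.3.3 fitted 4 group means (lmFit, eBayes, 8 residual degrees of freedom), two-sided, with Benjamini-Hochberg adjustment over all genes in each of 5 comparisons, and was tested on simulated data. The number of arrays limits the precision. Systematic names were matched to RefSeq for 6132 genes. The 10 genes and the lists of other pathway genes were chosen with earlier results of these data known. All 10 genes are named, with those of 72 other pathway genes called in any comparison; HBN1 was not matched, and AAD15 and AAD16 have only probes shared with other genes. Alternatives were cyclic loess, 75th percentile scaling, an offset of 16, no detection filter, leaving out the dimmest 25% of genes, mean of probes, trended robust variance, fitting each comparison alone, array brightness, replicate number, the authors' values and each array left out.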

Additional observations from a re-analysis of the deposited data

How the results depend on the processing

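Of 1135 recomputed values of the 10 genes, under 11 alternatives and 12 left-out arrays, 1078 kept their direction and side of the threshold or stayed uncalled, 38 lost a call, 18 gained one and 1 reversed. The reversed one was GLR1 between the strains in control medium, at -0.16 with array brightness in the fit. Of 910 values uncalled in both, 46 changed sign. With brightness in the fit the count of the 10 genes called was 0 for tangeretin in WT, 0 between the strains in control medium, 1 between them under tangeretin and 1 for the difference of responses, and the counts over all genes were 17 for tangeretin in sgs1Δ, 7 in WT, 790 and 1101 between the strains and 201 for the difference. Fitting each comparison on its own arrays, 3 of the 10 were called between the strains in control medium, where 2521 of 6139 genes were. Under tangeretin 4 of the 10 were called between them, where 3113 of all genes were. With tangeretin against control 0 of the 10 were called in sgs1Δ and in WT, where 34 and 50 of all genes were. The authors' values gave 0 of the 10 with tangeretin in WT (GLR1 at 0.65, adjusted p = 0.0508), and over all genes 102 there and 54 for the difference. Scaling to the 75th percentile gave 344 and 59. It moved the share of calls that were higher to 74.7% in sgs1Δ and 81.4% in WT with tangeretin, where quantile normalization gave 50.5% and 55.3%, to 55.3% between the strains in control medium (44.9%) and to 61% for the difference (50%). It also called TSA1 lower between the strains (-0.45 in control medium and -0.49 under tangeretin) and SRX1 higher in control medium (0.27). Cyclic loess gave 63.2% higher with tangeretin in sgs1Δ.

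Leaving out 1 array at a time gave 0 to 0 of the 10 with tangeretin in sgs1Δ, 0 to 4 in WT, 3 to 5 between the strains in control medium, 1 to 5 under tangeretin and 0 to 1 for the difference. Over all genes the ranges were 18 to 778, 27 to 1650, 2250 to 3257, 2316 to 3045 and 13 to 336. With the replicate number as a block, the counts of the 10 genes did not move (0, 1, 5, 3 and 0), and 455 genes were called with tangeretin in WT, against 208 without it. Of 18 pairs of same-numbered arrays, 9 deviated together with a correlation over 0.1 (-0.42 to 0.51 in all). The 6 pairs of number 1 gave 0.05 to 0.51, and those of numbers 2 and 3 -0.42 to 0.25 and -0.21 to 0.25. Of 12 arrays 5 correlated best with their own number. Since not every pair exceeded 0.1, the numbers were not used to pair the arrays.

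TRX2, AHP1 and GPX2 in control medium and GPX2 under tangeretin kept their calls in 22 of 23 settings, all but brightness. TRR1 under tangeretin lost its call with cyclic loess, brightness, and without WT tangeretin array 1 or sgs1Δ tangeretin array 3. TRX2 under tangeretin gained a call with cyclic loess, with the comparison fitted alone and without WT control array 2 or 3, and AHP1 with cyclic loess and without WT control array 3, WT tangeretin array 2 or sgs1Δ tangeretin array 1. SRX1 under tangeretin lost its call with brightness and without WT tangeretin array 1 or 2 or sgs1Δ tangeretin array 1 or 2. Without the dimmest 25% of genes OYE3 has no value. Signal over background limits OYE3 and dim probes of the other lists, such as IDP2 and GTO3. The scanner range limits TSA1 and, among the other lists, SOD1.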
